A study of Mus musculus with 2 samples.

Results

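Receptor protein tyrosine phosphatases are transmembrane enzymes that remove phosphate from tyrosine residues and so oppose tyrosine kinases. Their outer parts resemble cell adhesion molecules and bind neighbouring cells, matrix or secreted factors, and the phosphatase domain lies inside the cell. The 10 genes described here, *Ptprg*, *Ptprz1*, *Ptprd*, *Ptprf*, *Ptprs*, *Ptprk*, *Ptprm*, *Ptprj*, *Ptpra* and *Ptpre*, were taken by gene symbol, because the study had checked *Ptprg* by qRT-PCR and the others are its relatives. They are 10 of 20752 genes that the chip's annotation names singly, and 37 of 38130 probe sets with a single gene name. In the deposited annotation all 10 carry the term protein tyrosine phosphatase activity.

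The samples were ovaries of female ICR mice. Control mice were born to dams given sesame oil (70 µl per injection), and prenatally androgenized (PNA) mice to dams given the same oil with 350 µg of dihydrotestosterone (DHT), an androgen that cannot be aromatized to estrogen, on gestation days 16 to 18. Each group held 5 ovaries and is measured by 1 Affymetrix Mouse Genome array, so no SD, test or p-value can be given for any value below and each difference is one between these 2 arrays. The labels place ovary removal on diestrus but give neither the age of these mice nor how the 5 ovaries were combined. A probe set is a group of short oligonucleotides against 1 stretch of a transcript, and its value is a linear signal intensity. Signals under the 40th percentile of their array (30.4 on the control and 30.6 on the PNA array) were taken as below the floor, and a change was called at 1.5-fold (0.585 on the log2 scale). The tissue label fitted its markers, since all 9 granulosa cell, 4 theca cell and 9 oocyte markers measured lay above the floor and both oviduct markers lay below it. In whole ovaries, fewer cells of a type and less RNA per cell cannot be told apart.

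*Ptprg* was the only one of the 10 genes with a change of at least 1.5-fold on any probe set above the floor, and that change was an increase. All 4 of its probe sets were above the floor on both arrays and all 4 had a higher signal in PNA ovaries, but the size differed widely. By the brightest probe set of each gene, 0 of the 10 genes were at least 1.5-fold higher and 0 were lower, against 2.49% higher and 2.16% lower among the 14116 genes above the floor. By probe set, 2 of the 25 above the floor were higher, both of *Ptprg*, and 0 were lower, against 3.04% higher and 2.21% lower among 27721 probe sets above the floor. The log2 ratios, PNA over control, had a median of -0.07 for the 10 genes and -0.01 for all genes above the floor.

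**Figure D1:**
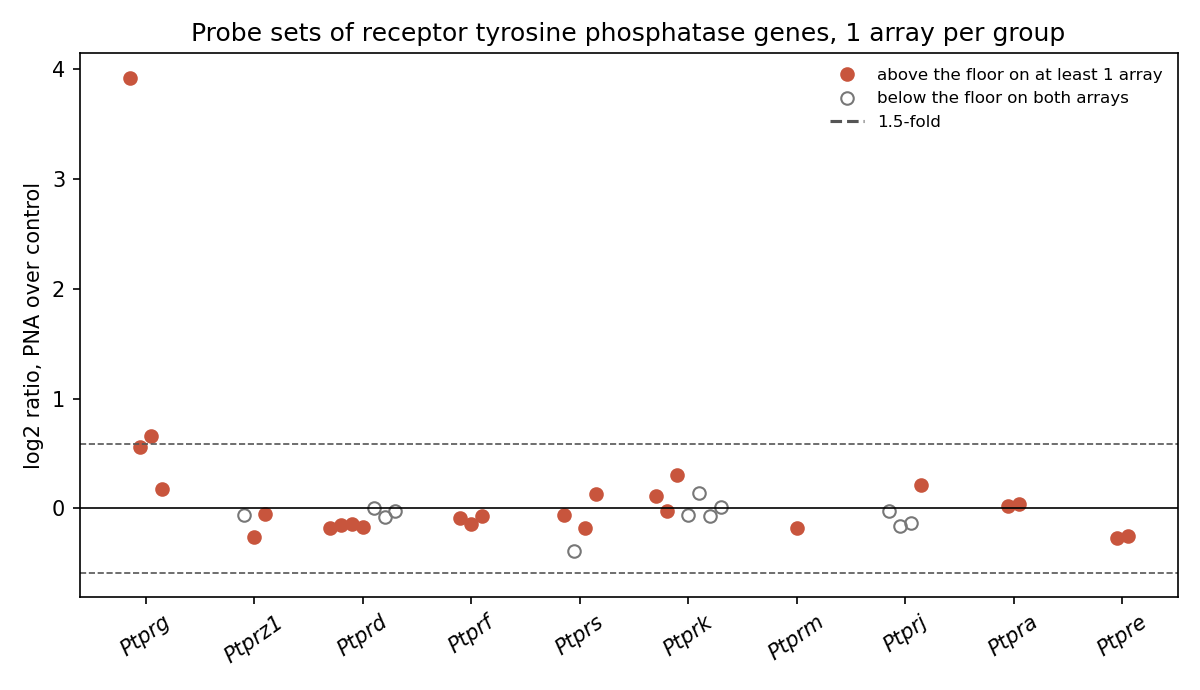
Log2 ratio of PNA over control (vertical axis) for each of the 37 probe sets of the 10 genes (horizontal axis), with dashed lines at 1.5-fold and open circles for the 12 probe sets below the floor on both arrays. The 4 probe sets of Ptprg lie between 0.18 and 3.92, and the 21 filled points of the other 9 genes lie between -0.27 and 0.30.

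PTPRG binds contactins, neuronal surface proteins, through a carbonic anhydrase-like domain, a feature it shares with PTPRZ1. Its gene lies on the plus strand of chromosome 14, where the deposited alignments of its probe sets cover 689 kb. The files name no genome build, but 97.5% of the 34754 alignments that could be compared overlap the span of their gene in GRCm38, so they were read as GRCm38. RefSeq holds a promoter window for each of 2 start sites of the gene. The windows are shown to place the probe sets, in lower case for the 250 bases before the start and in capitals for the 50 bases after it. The first is chr14:11553303-11553602 and the second chr14:12189693-12189992, both on the plus strand of GRCm38.p6.
Ptprg, 5′ start: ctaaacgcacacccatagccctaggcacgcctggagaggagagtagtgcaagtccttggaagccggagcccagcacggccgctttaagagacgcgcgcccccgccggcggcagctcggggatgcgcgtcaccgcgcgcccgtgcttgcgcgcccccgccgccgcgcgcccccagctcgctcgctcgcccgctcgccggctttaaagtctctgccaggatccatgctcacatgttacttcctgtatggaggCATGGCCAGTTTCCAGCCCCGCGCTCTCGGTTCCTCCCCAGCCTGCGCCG
Ptprg, 3′ start: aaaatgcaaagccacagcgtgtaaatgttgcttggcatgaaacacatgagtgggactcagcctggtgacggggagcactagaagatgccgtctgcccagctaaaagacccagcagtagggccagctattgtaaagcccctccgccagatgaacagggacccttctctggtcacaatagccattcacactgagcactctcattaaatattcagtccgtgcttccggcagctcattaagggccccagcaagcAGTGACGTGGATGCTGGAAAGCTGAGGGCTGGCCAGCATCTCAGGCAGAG
The 3′ start lies 52.1 kb before the end of the span, and the alignments of 3 of the 4 *Ptprg* probe sets lie wholly past it. The hexamer AGAACA, the core bound by the androgen receptor, was looked for on both strands. It is in 0 of the 2 *Ptprg* windows and in 1 of 14 windows held for the 10 genes (a window of *Ptprj*). No window was held for *Ptprd*. Of 32851 windows of this length in all, 19.0% have the hexamer, and no statement on the receptor follows from this.

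The paper reports that the genes it assayed by qRT-PCR, *Ptprg* among them, showed a trend like that on its array, and its text gives no fold change. The qRT-PCR assay of the study for *Ptprg* used the primer pair below, shown because it is the assay set beside the array. Its place relative to the probe sets was not determined here.
Ptprg forward: tccgcagacgaaaggcatc
Ptprg reverse: gctcctggtattcatcgccaa

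The brightest probe set of *Ptprg*, 1434360_s_at (chr14:12237783-12238564), read 319 on the control and 471 on the PNA array, 1.47-fold or 0.56 on the log2 scale, under the threshold. Probe set 1450122_at, whose alignment runs across nearly the whole span (chr14:11553533-12238520), went from 166 to 262, a log2 ratio of 0.66. The alignments of both end close together on the genome, and only the second passed 1.5-fold. Probe set 1456070_at (chr14:12241611-12242041), at the 3′ end of the span, went from 174 to 196, a log2 ratio of 0.18.

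The fourth probe set stood far from these. Probe set 1429691_at (chr14:12238946-12241085) went from 31.9 in control ovaries, close to the floor, to 484 in PNA ovaries, 15.2-fold or a log2 ratio of 3.92. The size of the fold depended on how the faint control signal was treated, and with 50 added to both signals it was 6.52-fold (2.70 on the log2 scale). It was the largest increase among all 45037 probe sets of the chip, with the offset as without it, and without the offset it was followed by a probe set without a gene name (3.36) and by *Slit2* (3.15). Its alignment lies on the genome between those of 1434360_s_at and 1456070_at, whose ratios were 0.56 and 0.18. On the PNA array the 4 signals lay between 196 and 484, and on the control array between 31.9 and 319. What sets the control signal of 1429691_at apart was not tested, and probe sequences were not used here.

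**Figure D2:**
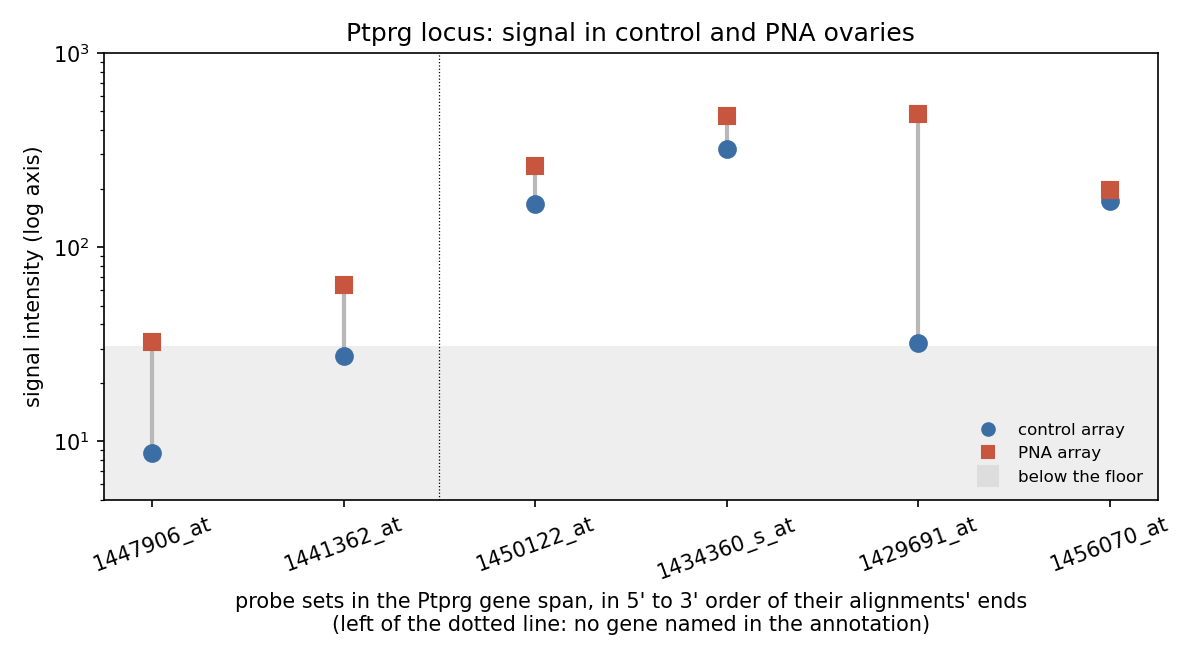
Signal intensity (vertical log axis) on the control array (circles) and the PNA array (squares) for each probe set aligned in the Ptprg span, in 5′ to 3′ order, with the area below the floor shaded. Every square lies above its circle, and the gap is widest for 1429691_at, from 31.9 to 484.

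The spread among the *Ptprg* probe sets was wide for this chip. The highest and lowest log2 ratio of *Ptprg* were 3.74 apart, the second widest gap among 6260 genes with several probe sets above the floor, of which only *Xaf1* had a wider gap (4.99). The median gap was 0.16, and 75 of these genes (1.20%) had a gap over 1. The gap of *Ptprg* was 2.57 with 50 added to both signals and 0.48 without 1429691_at. The mean log2 ratio over all 4 probe sets was 1.33, past the threshold, and without 1429691_at it was 0.47, under it. Hence the call for *Ptprg* at the level of the gene rests on which probe sets are counted, while the direction was the same on all 4.

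Within the *Ptprg* span, 2 further probe sets align on the same strand without any gene name in the annotation, and both had a higher signal in PNA ovaries. Probe set 1441362_at (chr14:11967255-11968175, 414 kb from the 5′ end of the span) went from 27.4 to 64.0. Probe set 1447906_at (chr14:11724455-11724645, at 171 kb) went from 8.74 to 32.5. Both lay below the floor in control ovaries, so the increases are at least 2.10-fold and at least 1.07-fold, with measured log2 ratios of 1.23 and 1.89, and against the floor only the first passes 1.5-fold. They lie before the 3′ start, and the annotation used gives no exons with which to say whether they are exonic or intronic. The match percentages of their alignments, 45.4 and 29.5, are low beside 96.9 to 99.2 for the named probe sets. In the spans of the other 9 genes, 17 unnamed probe sets align on the strand of the gene, 9 of them above the floor. Of these 9, 0 passed 1.5-fold, with log2 ratios from -0.34 to 0.21. Among all probe sets above the floor 3.04% were higher and 2.21% lower, so a count of 0 is near the background in so short a list. These 9 passed the floor on both arrays, and the 2 in the *Ptprg* span only on the PNA array. This look at unnamed probe sets was chosen after the values were seen.

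*Ptprz1* is the closest relative of *Ptprg* and is known from glia, where it is also made as a secreted proteoglycan. Its brightest probe set, 1427019_at, went from 52.5 to 43.7, a log2 ratio of -0.26. The other probe set above the floor, 1452284_at, read 33.7 and 32.6 (-0.05), and a further one, 1418690_at, lay below the floor with 6.33 and 6.09. Thus *Ptprz1* was low on both arrays and did not reach 1.5-fold on any probe set. Of the 5 glia markers measured, 3 were above the floor, and *S100b* among them was lower in PNA ovaries (248 to 76.6, log2 ratio -1.69).

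*Ptprd*, *Ptprf* and *Ptprs* form the LAR family, with immunoglobulin and fibronectin domains outside the cell, receptors for heparan and chondroitin sulfate proteoglycans. *Ptprd* had 7 probe sets over a span of 2271 kb, 4 of them above the floor. They went from 2443 to 2204 (1429052_at, log2 ratio -0.15), from 2021 to 1787 (1424886_at, -0.18), from 1147 to 1041 (1435537_at, -0.14) and from 93.3 to 82.8 (1443860_at, -0.17). All 4 were lower in PNA ovaries and their ratios lay within 0.04 of each other. The unnamed probe sets above the floor inside its span numbered 8, and none was called, against 3.04% higher and 2.21% lower among all probe sets above the floor.

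*Ptprf*, which encodes LAR itself, was measured by 3 probe sets made from the same aligned sequence, all above the floor. The brightest, 1420843_at, went from 708 to 675 (log2 ratio -0.07), and the others had ratios of -0.09 and -0.14, a gap of 0.07. *Ptprs*, known for holding back axon growth on proteoglycans, read 842 and 806 on 1426794_at (-0.06). Its further probe sets above the floor disagreed in sign, with 53.2 and 47.1 on 1427688_a_at (-0.17) and 55.2 and 60.3 on 1436855_at (0.13). No probe set of the LAR family came near 1.5-fold on a signal above the floor.

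*Ptprk* and *Ptprm* carry a MAM domain and bind the same protein on the neighbouring cell, and they are known partners of the cadherin and catenin complex. *Ptprk* went from 266 to 262 on 1423278_at (log2 ratio -0.02) and from 165 to 178 on 1423277_at (0.11), both made from the same aligned sequence. A further one, 1431680_a_at, crossed the floor from 26.7 to 32.8, at least 1.08-fold, and 4 lay below the floor on both arrays. *Ptprm* had a single probe set, 1422541_at, with 249 and 219 (-0.18). Both genes therefore stayed within 1.5-fold, with no second measurement for *Ptprm*.

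*Ptprj*, known as DEP-1 or CD148, acts on growth factor receptors and is found on leukocytes and endothelium. Only 1 of its 4 probe sets lay above the floor, 1455030_at, which went from 39.2 to 45.3 (log2 ratio 0.21). The other 3 lay between 7.35 and 14.5 on the arrays. Inside its span, on the same strand, the separately named transcripts *AW555355* (48.4 to 80.2, 0.73) and *2310079F09Rik* (42.8 to 71.5 on 1460536_at, 0.74) passed 1.5-fold. Both were named after their values were seen, and among all probe sets above the floor 3.04% were higher. A named transcript on the strand of *Ptprs*, *9630010G10Rik*, read 225 and 259 (0.20) and was not called. *AW555355* and *2310079F09Rik* lie inside the *Ptprj* span, so the values of *Ptprj* and of these transcripts are uncertain as separate measures. Their alignments (chr2:90568248-90569373 and chr2:90519432-90520642) do not overlap that of 1455030_at (chr2:90432888-90434808).

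*Ptpra* and *Ptpre* have short, heavily glycosylated outer parts, and PTPRA is known to activate Src kinase by removing its inhibitory phosphate. *Ptpra* went from 954 to 971 on 1425340_a_at (log2 ratio 0.03) and from 38.7 to 39.8 on 1447467_at (0.04). *Ptpre* read 239 and 200 on 1418540_a_at (-0.25) and 213 and 176 on 1418539_a_at (-0.27), which share their aligned sequence. The probe sets agreed within 0.02 for each gene, with *Ptpra* level and *Ptpre* a little lower but under 1.5-fold.

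Taken over the 9 genes other than *Ptprg*, 7 had a negative and 2 a positive log2 ratio by the brightest probe set, from -0.26 to 0.21. Among all 14116 genes above the floor, 6643 had a log2 ratio above 0. Of the 21 probe sets of these 9 genes above the floor, 15 were below 0 and 6 above, with a median of -0.09, against 0.00 over all probe sets above the floor. Several of the 21 share an aligned sequence with another of the same gene, so they are not separate observations. The middle 95% of log2 ratios on the chip, among probe sets above the floor, ran from -0.55 to 0.64. All 21 lay inside that range, and of *Ptprg* the probe sets at 0.66 and 3.92 lay outside it.

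**Figure D3:**
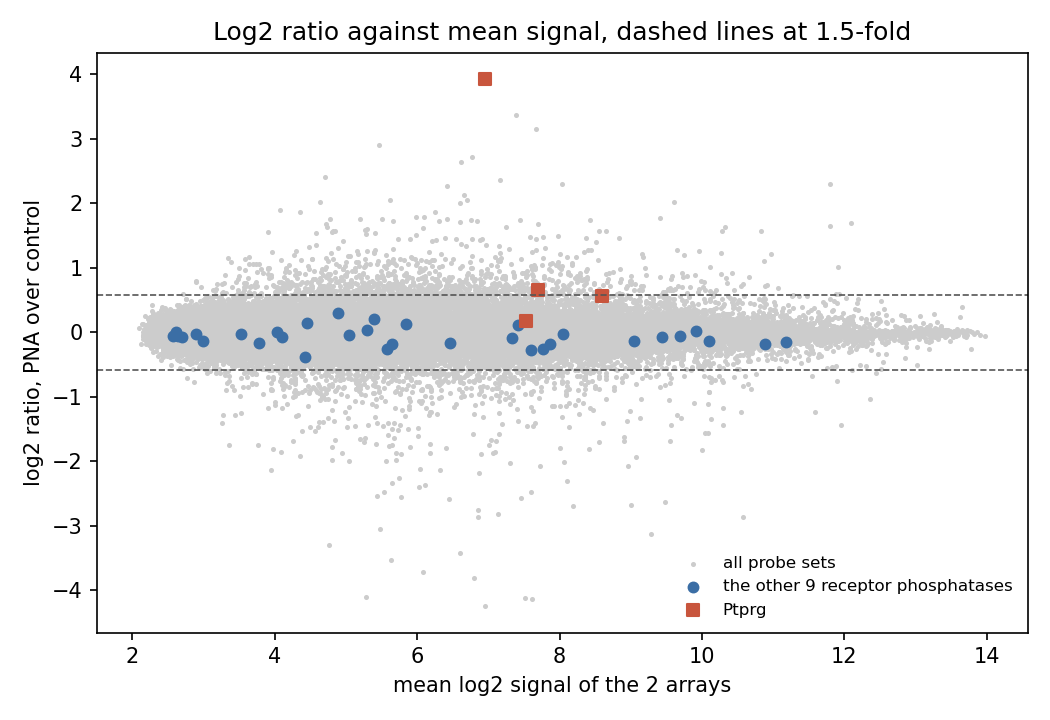
Log2 ratio of PNA over control against the mean log2 signal of the 2 arrays for all 45037 probe sets (grey), with Ptprg (squares) and the other 9 genes (circles). The square at 3.92 is the highest point of the plot, and all circles lie between the dashed lines at 1.5-fold.

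Of the other receptor phosphatases, 6 of 9 measured lay above the floor, and 0 were higher and 0 lower, with a median of 0.00. With 2.49% higher and 2.16% lower among all genes, a count of 0 is near the background in a list this short, that of the non-receptor phosphatases included. *Ptprc*, the leukocyte phosphatase CD45, came closest, from 195 to 285 (log2 ratio 0.55), and is itself among the leukocyte markers given below. *Ptprt*, a MAM domain relative, read 47.2 and 36.3 (-0.38), and *Ptprb*, the endothelial phosphatase, 305 and 320 (0.07). Among the non-receptor tyrosine phosphatases, 0 of 13 above the floor were higher and 0 lower, with a median of -0.04 and a range from -0.29 (*Ptpn3*) to 0.32 (*Ptpn18*).

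Of the partners that meet these receptors outside the cell, 18 of 31 measured lay above the floor, and 2 were higher and 1 lower, against 2.49% and 2.16% of all genes, with a median of 0.12. The count of higher genes was 1 under median scaling or with 50 added to both signals, the count of lower genes was 0 by the mean or median over probe sets, and both were 0 at a fold change of 2. *Tnc*, the matrix protein tenascin-C, was higher on both of its probe sets, from 1501 to 2504 (log2 ratio 0.74) and from 188 to 626 (1.73). *Mdk*, which encodes midkine, a heparin-binding growth factor and ligand of PTPRZ1, went from 382 to 574 on its only probe set (0.59), at the edge of the threshold, and it fell short of it under median scaling and with 50 added to both signals.

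*Vcan*, the chondroitin sulfate proteoglycan versican, was lower on its brightest probe set, from 1088 to 680 (-0.68), but its other probe sets above the floor read -0.54 and 0.33, so they disagreed in sign, and the call was lost by the mean or median over probe sets. *Ptn*, pleiotrophin, the other growth factor ligand of PTPRZ1, read 176 and 199 (0.18). Contactins were faint: of the 5 measured, *Cntn1*, *Cntn3*, *Cntn4* and *Cntn6* lay below the floor on both arrays, and *Cntn2* read 38.0 and 43.6 (0.20). These 5 were taken as a family, and not each of them is a ligand of PTPRG.

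Inside the cell, 1 of 22 partners and substrates above the floor was lower, against 2.16% of all genes. It was *Met*, the receptor of hepatocyte growth factor, which went from 102 to 65.0 (log2 ratio -0.65). None of the 22 was higher, against 2.49% of all genes, and their median was -0.05. A dimmer probe set of *Met* lay below the floor, and the call was lost by the mean over probe sets, with 50 added and at a fold change of 2. *Ppfia1*, a liprin that anchors the LAR family, read 202 and 192 (-0.07), *Src* 99.2 and 101 (0.03), and *Ctnnb1*, beta-catenin, 7301 and 6728 (-0.12).

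**Figure D4:**
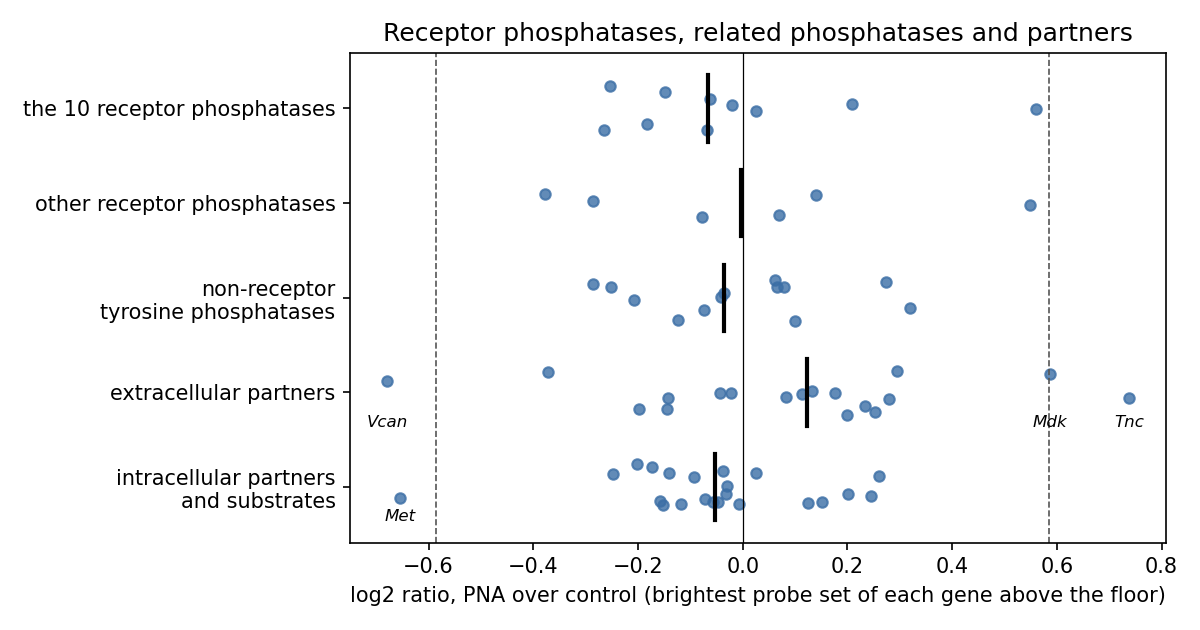
Log2 ratio of PNA over control (horizontal axis) by the brightest probe set of each gene above the floor, for the 10 receptor phosphatases and 4 lists of related genes (rows), with the list median as a bar and dashed lines at 1.5-fold. Only Tnc, Mdk, Vcan and Met lie past the dashed lines.

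Markers of other cell types differed between the arrays in either direction. The shares called among all genes above the floor, 2.49% higher and 2.16% lower, stand beside each count here. Among surface epithelium markers 1 of 5 above the floor was higher (*Krt19*) and 0 lower, and their summed signal was 690 on the control and 1038 on the PNA array. Of 4 stromal markers 0 passed 1.5-fold and all 4 were above 0, with sums of 7590 and 9755. For leukocytes 2 of 10 were higher (*S100a8* and *S100a9*) and all 10 above 0, with sums over the 11 measured of 3978 and 4835. Over all genes above the floor, 6643 of 14116 were above 0, and all these signs are those of the brightest probe set of each gene.

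Of 9 granulosa cell markers 2 were higher, *Cyp19a1* (aromatase, 2.02 on the log2 scale) and *Amh* (0.74), and 5 of 9 were above 0, with sums of 22010 and 23382. Of 4 theca cell markers 1 was higher, *Cyp17a1* (2709 to 5448, 1.01), and 2 of 4 were above 0, with sums of 41872 and 42534. The others were *Star* (0.11), *Cyp11a1* (-0.02) and *Hsd3b1* (-0.26). Of 5 corpus luteum markers 1 was lower, *Lhcgr* (-1.44), but 3 of 5 were above 0, with sums of 26110 and 28961. The brightest of them, *Akr1c18*, went from 11274 to 14741 (0.39), beside *Ptgfr* (0.14), *Scarb1* (0.14) and *Prlr* (-0.37). Oocyte markers were above 0 in 8 of 9 cases with 0 called, and summed to 2660 and 3070. Smooth muscle markers went the other way, with a median of -0.34, 1 of 5 above 0, 0 called and sums of 6814 and 5763. Endothelial markers had sums of 1474 and 1438, with none called, and of 6 neuron markers 4 lay below the floor on both arrays. The part of these cell types in the values of *Ptprg* was not tested.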

How the data were processed

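Total RNA of PNA and control ovaries was hybridised as biotinylated cRNA, 1 array per group. The authors deposited a linear signal intensity for each of 45101 probe sets and log2 values that they had centred per probe set over both arrays, the latter also as the series values. The log2 ratios of the linear and centred tables differ by at most 2e-06, so both carry the same normalization, whose software the sources used here do not name. Deposited columns of fold change and lists of differential genes hold the comparison of the authors and were not used.

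After 64 control probe sets were left out, log2 ratios of PNA over control were computed with Python 3.11.15, numpy 2.4.6 and pandas 2.3.3. Each gene took the value of its brightest probe set (by mean log2 signal) among those naming it alone. Since each group is a single array, nothing could be tested, and the number of arrays limits the precision. A gene or probe set crossing the floor is given as at least N-fold against the floor. The steps were tested on simulated data.

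All probe sets of the 10 genes were reported, and of the related lists each gene past 1.5-fold, with further genes named for their role. The members and lists were chosen with earlier results of these data known. Alternatives were median scaling, quantile normalization, loess (fraction 0.3, statsmodels 0.14.6), an offset of 50, other floors and probe set rules, a fold change of 2 and the series values.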

Additional observations from a re-analysis of the deposited data

How the results depend on the processing

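With 1 array per group no replicate could be left out. A moved log2 value is one that changed by more than 0.19, the pooled SD of log2 ratios among probe sets of the same gene. A moved count is one that went to or from 0 or changed by more than 1.5-fold. By the mean of all probe sets *Ptprg* had a log2 ratio of 1.33, and 1 of the 10 genes was then higher in place of 0, as also by the median of probe sets above the floor. Taken by its probe set with the largest change, an alternative added after the values were seen, it had 3.92. The count of 2 higher probe sets fell to 1 with 50 added to both signals, at a fold change of 2 and without the *Ptprg* probe set of largest change, and with the unnamed probe sets inside the spans it came to 4 by measured ratios but 3 with signals below the floor raised to it. Leaving out that probe set and adding unnamed ones were choices made after the values were seen. The gap among *Ptprg* probe sets was 2.57 with 50 added and 0.48 without that probe set. Median scaling, quantile normalization, loess and the series values moved none of these results past those limits, and 0 of the 10 genes or their probe sets were lower under any alternative run. Of 63 values of the other 9 genes under the alternatives, 0 passed 1.5-fold, with a range from -0.29 to 0.21, and 62 moved by less than the spread, the exception being *Ptprj* at -0.03 by the mean of all its probe sets. Of 128 values of the related lists 9 moved, all counts of 0 to 2 genes.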
